A study of Mus musculus with 8 samples.

Results

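Sbp, Gm17416, Fermt1, 3110079O15Rik and Gm266 were followed here as 5 of the 27998 genes counted in single mammary epithelial cells of the mouse. They were picked by name because their levels were high in nulliparous (NP) cells and low after involution (PI), so the NP and PI values describe how they were chosen and carry no test. The questions asked were whether the loss was already seen in gestation (G) and whether it was seen in every cell type. The C57BL/6N mice were taken as virgins at 8 weeks of age (NP), on gestation day 14.5 (G), on lactation day 6 (L) or, for PI, 11 days after their pups were weaned naturally, with 2 mice per stage. No stage carried a transgene or a drug, all were sorted for the epithelial marker EpCAM after blood and endothelial cells had been excluded by CD45, Ter119 and CD31, and by vaginal smear both NP mice and PI mouse 2 were in oestrus while PI mouse 1 was in dioestrus.

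The mammary epithelium holds an inner luminal layer and an outer contractile basal layer. Luminal cells are either hormone-sensing, with receptors for oestrogen and progesterone, or secretory, the latter arising from luminal progenitors that form alveoli in pregnancy and make milk in lactation. After weaning the alveoli die back and the ducts remain. The genes belong to unrelated families. Sbp encodes spermine binding protein, a secreted protein known from the ventral prostate, where androgen controls it. Gm17416 is an uncharacterised predicted gene within a cluster of β-defensin genes, which encode secreted antimicrobial peptides. Fermt1 encodes kindlin-1, an adaptor that binds integrin tails and helps to activate integrins. 3110079O15Rik is named Snorc in later annotation, a membrane proteoglycan first known from cartilage. Gm266 is a predicted protein-coding gene with no role that can be stated here.

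In the GRCm38 annotation (GENCODE vM21) Sbp lies on chromosome 17 from 23941672 to 23945607, Fermt1 on chromosome 2 from 132904389 to 132945906, and 3110079O15Rik on chromosome 1 from 87470271 to 87475482. None of these overlapped another annotated gene. Gm266, 1215 bases on chromosome 12 from 111484609 to 111485823, lies within Gm40578, a non-coding transcript of the same strand that had no row in the count tables. Gm17416 is 1 exon of 201 bases on chromosome 2 from 152569338 to 152569538, among β-defensin genes, the nearest of which, Defb21, is 3206 bases away. Its annotated model opens without a start codon, reads through 67 codons with 0 internal stops and ends at its stop codon, so this model has no untranslated part; the release of the annotation used for counting is not given in the sources used here. The GENCODE transcript is shown because the gene has no described protein; the capitals mark its 7 in-frame cysteine codons, cysteine being the residue that crosslinks defensins.
Gm17416 transcript, plus strand: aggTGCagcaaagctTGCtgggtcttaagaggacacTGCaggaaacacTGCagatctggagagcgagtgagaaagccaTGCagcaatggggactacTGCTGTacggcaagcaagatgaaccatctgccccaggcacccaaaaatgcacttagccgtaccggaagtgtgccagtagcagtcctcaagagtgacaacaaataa

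Promoter windows from RefSeq (GRCm38.p6, 250 bases before to 50 after a start site) were held for Sbp (3 start sites), Fermt1 (1) and Gm266 (1); 3110079O15Rik and Gm17416 had no entry. The windows of Sbp and Gm266 are shown because these genes peaked at different stages. They were searched on both strands for AGAACA, the core element shared by androgen, glucocorticoid and progesterone receptors, for TTCNNNGAA, the site of STAT factors, and for the palindromic oestrogen response element. AGAACA was found as its reverse complement TGTTCT (capitals) in 1 window, that of the Sbp start at 23941918, with its first base at -64 from the start, and 6233 of all 32851 windows hold it. TTCNNNGAA, in 8.30% of windows, was found in 1 of the 3 Sbp windows, that of the start at 23922551, and none of the windows held the oestrogen response element, which is in 0.070% of all windows. The Gm266 window held none of the 3 motifs, was 76% G and C and held 33 CpG, against medians of 52.7% and 7 over all windows.
Sbp, chr17:23941668-23941967, plus strand: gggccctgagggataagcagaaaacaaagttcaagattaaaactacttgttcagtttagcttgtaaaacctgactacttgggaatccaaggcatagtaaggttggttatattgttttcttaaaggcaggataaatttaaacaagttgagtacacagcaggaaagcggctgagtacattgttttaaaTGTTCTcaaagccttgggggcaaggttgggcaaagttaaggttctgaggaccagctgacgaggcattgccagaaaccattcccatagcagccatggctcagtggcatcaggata
Gm266, chr12:111485774-111486073, minus strand: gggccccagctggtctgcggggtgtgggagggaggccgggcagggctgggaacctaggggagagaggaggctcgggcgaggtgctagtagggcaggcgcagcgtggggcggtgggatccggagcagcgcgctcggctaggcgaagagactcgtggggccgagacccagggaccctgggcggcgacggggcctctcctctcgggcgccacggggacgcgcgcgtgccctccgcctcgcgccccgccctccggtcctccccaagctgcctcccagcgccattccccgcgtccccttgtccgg

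Of 25806 barcodes, 791 were shared between libraries and left out, and 23183 cells of C1 to C15 were used. The libraries held from 13785920 to 35711533 UMIs, which are molecular tags that count captured transcripts once. UMIs were summed over the cells of each mouse and cluster of the authors' annotation and are given per 1000000 UMIs of that sum (CPM), for the 35 sums of clusters C1 to C15 with at least 20 cells. The clusters carried the markers of their names, with limits that touch the results. The hormone-sensing cluster of G, C5, held only 20 and 41 cells and 381612 UMIs in all (3 UMIs being the limit that a count of 0 allows), so that a count of 0 there allows a level of up to 7.86 CPM. The basal cluster C12 held 27 and 53 cells in PI. All 8 basal markers were detected in both PI sums of C12, at 9895 and 7521 CPM in all. The hormone-sensing markers Esr1, Prlr and Cited1 were at 0 in PI mouse 1. In PI mouse 2 Prlr stood at 680 CPM and Cited1 at 88.1 CPM. In C12 of NP Prlr stood at 198 and 221 CPM, and Cited1 at 51.0 and 45.7 CPM. Summed luminal markers, all 5 detected, came to 6210 and 4166 CPM in NP basal cells against 1283 and 1394 CPM in G. In PI they came to 3558 CPM in mouse 1, below the basal markers, and to 8131 CPM in mouse 2, above them. The sums called progenitors below were luminal progenitors in NP (C6) and PI (C7) and the authors' alveolar progenitors in G (C10) and L (C11), so in every such comparison between NP or PI and G or L, stage and cell type cannot be told apart. The 4 luminal progenitor markers, all detected, came to 2444 and 2195 CPM in C6 and to 977 and 1090 CPM in C10. In C11 they came to 1850 and 2128 CPM, and in C7 to 1502 and 1064 CPM. Aldh1a3 alone made 2035 and 1759 CPM of the C6 sums. The 8 basal markers, all detected, came to 6432 and 4573 CPM in C11 against 54.6 to 261 CPM in C6 of NP, C10 and C7. The sums called basal cells below were basal clusters in NP and PI (C12) and in G (C13). In L they were C14, which the authors name myoepithelial cells. Of the 8 basal markers, 7 rose and 0 fell from NP to L by the edgeR quasi-likelihood test. Oxtr went from 52.2 and 72.7 CPM in C12 of NP to 743 and 672 CPM in C14. In every basal comparison with L, stage and cell type thus cannot be told apart.

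**Figure D1:**
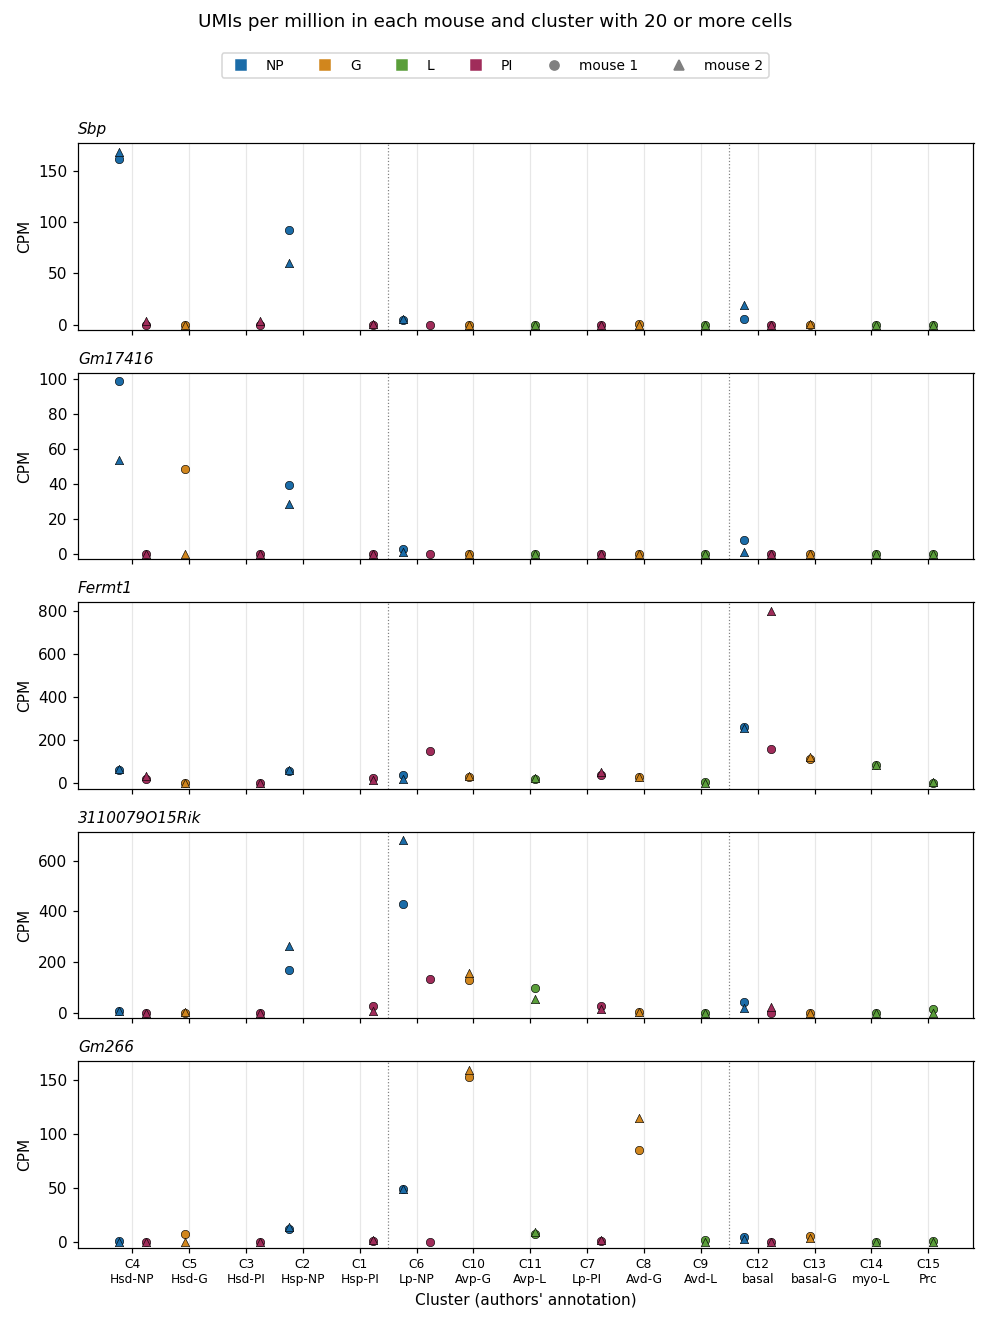
CPM (vertical axes, linear, 1 scale per gene) of each gene in every cluster with 20 or more cells; colours give the stage, circles mouse 1 and triangles mouse 2, and dotted lines part hormone-sensing, secretory and basal clusters. Sbp is highest in C4 and C2 of NP, Gm17416 in C4 of NP, Fermt1 in C12, 3110079O15Rik in C6 of NP and Gm266 in C10 and C8 of G. The Gm17416 point of C5 in G mouse 1 (48.7 CPM, from 1 cell) lies above those of C2.

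Between NP and PI the members were not lost in every cell type. In hormone-sensing cells (C4 of NP, C3 of PI) and in hormone-sensing progenitors (C2, C1) both PI mice lay below both NP mice for 5 of 5 genes, as they did for 24.6% and 24.8% of all genes with a UMI. In luminal progenitors (C6, C7) this held for 4 of 5 and in basal cells (C12) for 3 of 5, against 31% and 32.3% of all genes, so 17 of the 20 combinations showed it. The 3 basal cases, Sbp, Gm17416 and Gm266, had 0 UMIs in PI, which allows up to 7.59 CPM, a level above the NP level for Gm17416 and Gm266, so a loss of these was not detectable in basal cells at this depth. Since the members were chosen on this contrast, nothing is read from these counts; the edgeR quasi-likelihood test called 17.6%, 16.2%, 26.1% and 4.82% of all genes between NP and PI in these 4 cell types. The exceptions were Fermt1 in progenitors, where both PI mice lay above both NP mice, and Fermt1 and 3110079O15Rik in basal cells, where the stages overlapped. In basal cells the Fermt1 level of PI was 61.9% of NP without PI mouse 2 and 307% without PI mouse 1.

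**Figure D2:**
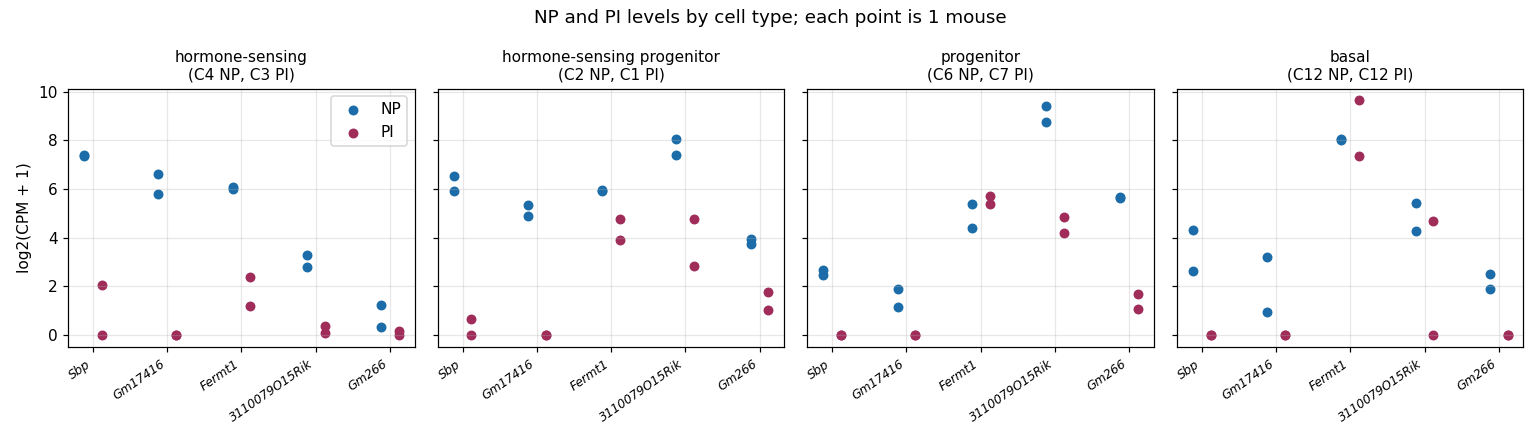
log2(CPM + 1) of each gene in NP (blue) and PI (red) mice in 4 cell types, 1 point per mouse. All 5 genes are lower in both PI mice in the hormone-sensing panels, whereas Fermt1 is not lower in progenitors (41.1 and 52.1 CPM in PI) and spans the NP values in basal cells.

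Sbp and Gm17416 were hormone-sensing genes of the NP gland. Sbp stood at 162 and 168 CPM in C4 and at 92.4 and 59.8 CPM in C2 of the NP mice. In PI it was at 0 and 3.22 CPM in C3, and at 0 and 0.597 CPM in C1. Mean Sbp in C3 was thus 102-fold below C4 of NP, and all 50 UMIs came from PI mouse 2, where 17 of 2487 cells held any. PI mouse 2 was the PI mouse in oestrus, and with 1 mouse per cycle phase the part of the cycle cannot be told apart from that of the mouse. Across the entire G libraries 1 UMI of Sbp was counted in each mouse, and both L libraries held 0. Gm17416 stood at 98.6 and 54.0 CPM in C4 and at 39.6 and 28.6 CPM in C2 of NP. In PI it had 0 UMIs in every cluster. This is at least 470-fold lower in C3 than in C4 of NP, taking 3 UMIs over both mice as the floor and UMIs as independent. Its UMIs were concentrated in few cells, as given below, so this fold is not a firm lower limit.

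No Sbp was detected in the few hormone-sensing cells of gestation. The summed hormone-sensing markers were also lower in C5 (2321 and 3367 CPM, all 5 detected) than in C4 of NP (11013 and 9532 CPM). In C3 of PI they came to 12547 and 11442 CPM. Taken singly, 1 of the 5 markers rose and 2 fell from NP to G past the edgeR test. The part of these markers in each difference of C5 was not tested. C5 held 0 Sbp UMIs in both G mice, at least 21.0-fold lower than C4 of NP if UMIs are taken as independent. They were not spread evenly: 3.60% and 4.04% of C4 cells held more than 10, and C5 had only 20 and 41 cells. The fold is therefore not a firm lower limit. The edgeR quasi-likelihood test gave an adjusted p of 1.66e-07, while DESeq2 gave 0.109. For Gm17416, C5 held 48.7 CPM in G mouse 1 and 0 in G mouse 2. The 6 UMIs behind the first value all came from 1 cell, and only 1 more was found in the G libraries, in an alveolar cell. Its log2 fold change from NP to G was -2.51 ± 0.61 (SE; adjusted p = 0.00393, edgeR), but the adjusted p was 0.607 without G mouse 2 and 0.755 by DESeq2. The call of Gm17416 from G to PI in these cells (adjusted p = 0.00032, edgeR) rested on the same cell and was lost without G mouse 1 (adjusted p = 1). The comparisons from NP share the NP sums, and those to PI the PI sums, with the choice of the genes.

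Both genes were concentrated in few cells. In C4 of the NP mice 15.7% (95% exact binomial interval 13.4 to 18.1) and 14.9% (12.9 to 17.0) of cells held a Sbp UMI, at median depths of 10163 and 10309 UMIs per cell. The 10 highest cells held 59.8% and 42.4% of the Sbp UMIs, and the highest held 305 and 192. In NP fibroblasts (C18) 4.17% and 7.14% of cells held a Sbp UMI at median depths of 5336 and 4980. These were 1 of 24 and 4 of 56 cells with at most 1 UMI each, with exact binomial intervals of 0.105 to 21.1% and 1.98 to 17.3%. In luminal progenitors (C6) the shares were 3.76% and 4.11%, at levels of 4.53 and 5.39 CPM. With so few fibroblasts the part of background in the Sbp level of C6 cannot be told, and it was not tested. In basal cells of NP the shares were 3.97% and 3.55%, most of these cells held 1 UMI each, and the same limit holds. In NP mouse 2, 32 of the 41 Sbp UMIs of basal cells came from 1 cell. Sbp was lower in basal cells of G (adjusted p = 0.000234 by edgeR, 63 UMIs in NP and 1 in G). This is not read as a loss from these cells, nor is a loss excluded. These intervals cover counting error only. Gm17416 was found in 16.7% and 8.17% of C4 cells, where the 10 highest held 31.9% and 52.7% of its UMIs.

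Cells with Sbp and cells with Gm17416 overlapped in part. In C4 a Gm17416 UMI was found in 25% of the cells with Sbp against 15.1% of the other cells in NP mouse 1, and in 13.9% against 7.17% in NP mouse 2. Deeper cells are more likely to show both, and the part of depth was not tested. Of the cells with at least 5 Sbp UMIs, 4 of 48 in mouse 1 and 5 of 78 in mouse 2 had at least 5 Gm17416 UMIs, so most cells high in either gene were not high in both. Fermt1, in contrast, was spread over C4: 42.2% and 41.4% of cells held a UMI, and the 10 highest held 9.96% and 8.45% of its UMIs.

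**Figure D3:**
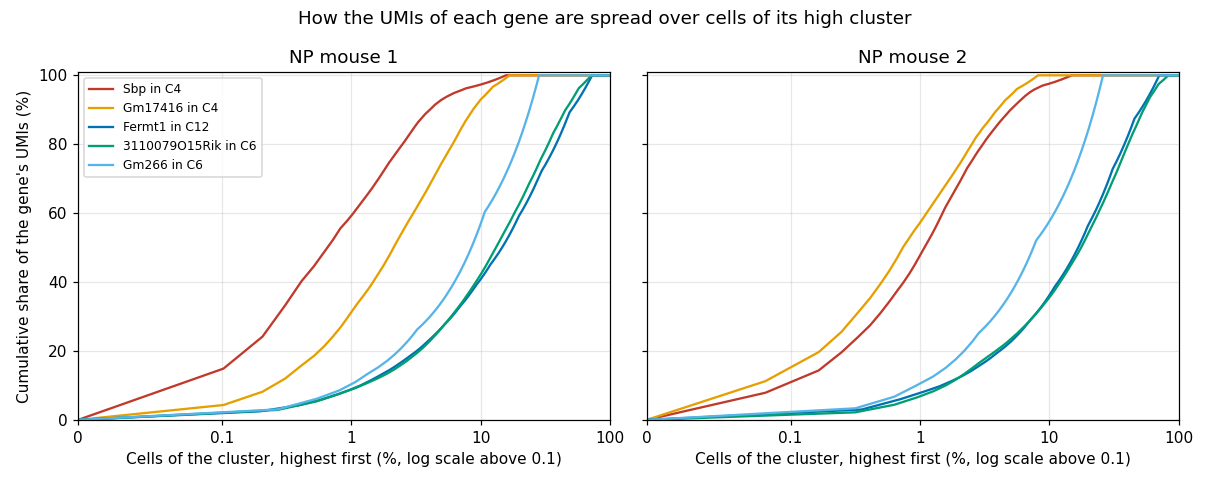
Cumulative share of each gene's UMIs (vertical axis, %) over the cells of its NP cluster ranked from the highest (horizontal axis, % of cells, log scale above 0.1), for NP mouse 1 and NP mouse 2. The Sbp and Gm17416 curves rise first: their 10 highest cells hold 31.9 to 59.8% of the UMIs.

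Fermt1 was low in the hormone-sensing clusters of G and PI, and L had no such cluster with 20 cells. In C4 of NP it stood at 62.6 and 66.9 CPM. In C5 of G it was at 0 and 3.87 CPM, the latter from 1 UMI, 24.8-fold below NP with a 95% counting interval of 4.44 to 978. The edgeR adjusted p was 2.95e-05 and rose to 0.0617 without G mouse 2, which leaves 20 cells in G. In C3 of PI it was at 4.20 and 1.29 CPM, 4.24% of the NP mean (1.99% without PI mouse 1 and 6.49% without PI mouse 2). The PI cells placed in C4 itself, 40 and 88 cells, held 18.97 and 34.5 CPM, higher than C3 and lower than C4 of NP. In hormone-sensing progenitors Fermt1 went from 59.0 and 62.1 CPM in C2 to 25.9 and 14.1 CPM in C1, 33.1% of the NP mean.

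In basal cells, where its level was highest, Fermt1 stood lower in G and L than in NP. The levels were 263 and 258 CPM in NP, 115 and 122 CPM in G, and 85.4 and 86.0 CPM in the myoepithelial cells of L (C14). The log2 fold change from NP was -1.06 ± 0.29 in G (adjusted p = 0.00721) and -1.40 ± 0.28 in L (adjusted p = 0.00034, edgeR). Without G mouse 1 the adjusted p in G was 0.0537, and DESeq2 gave 0.292 and 0.125. From G to L, which shares no sum with the choice of the genes, the log2 fold change was -0.35 ± 0.28 (adjusted p = 0.318), and without PI mouse 1 or PI mouse 2 in the fit the adjusted p was 0.0234 or 0.0218. The luminal markers given above were also higher in the NP basal sums than in G, and their part in the fall was not tested. In PI the mice were far apart, at 161 and 800 CPM. The rise from G to PI (1.99 ± 0.33 on the log2 scale, adjusted p = 0.000496, edgeR) was 0.14 without PI mouse 2. The C12 sum of that mouse held Prlr at 680 CPM, against 0 in PI mouse 1 and 198 and 221 CPM in NP. The part of such markers was not tested. In C12 of PI mouse 2, 44 of 53 cells held Fermt1.

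In progenitors no fall of Fermt1 past the test was found. It stood at 40.7 and 19.9 CPM in C6 of NP, 30.6 and 32.4 CPM in C10 of G, 22.2 and 23.5 CPM in C11 of L and 41.1 and 52.1 CPM in C7 of PI. The basal markers given above were higher in C11 than in the other progenitor sums, and their part in the L value was not tested. The NP mice enclosed the G and L values, and from NP to G the log2 fold change was 0.00 ± 0.29 (adjusted p = 0.997). The rise from G to PI, 0.69 ± 0.26 (adjusted p = 0.0437, edgeR), passed the threshold narrowly and was lost without G mouse 1 (0.169), G mouse 2 (0.129) or PI mouse 2 (0.196). The 22 PI cells of mouse 1 placed in C6 held 152 CPM. Alveolar cells held 28.8 and 29.2 CPM in G (C8), and in L (C9) 6.99 and 1.35 CPM.

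3110079O15Rik was a progenitor gene, highest in C6 of NP at 428 and 680 CPM. It was next highest in hormone-sensing progenitors (C2) at 169 and 263 CPM, whereas hormone-sensing cells (C4) held 8.84 and 6.00 CPM, with a UMI in 6.59% and 4.79% of cells against 8.33% and 0% of NP fibroblasts (2 of 24 and 0 of 56 cells). It was found in 71.5% and 82.9% of C6 cells. In progenitors its level was lower at each stage after NP. It was at 128 and 155 CPM in C10 of G, a log2 fold change from NP of -1.99 ± 0.27 (adjusted p = 5.94e-05, edgeR), and at 98.98 and 55.3 CPM in C11 of L, of -2.54 ± 0.30 from NP (adjusted p = 1.54e-05). The step from G to L was not resolved (-0.56 ± 0.32, adjusted p = 0.211). In C7 of PI it was at 28.3 and 17.2 CPM, below both G mice (-2.52 ± 0.29, adjusted p = 1.21e-05), and 4.10% of the NP mean. Aldh1a3, a marker of luminal progenitors, stood at 2035 and 1759 CPM in C6 and at 379 and 467 CPM in C10. It was at 586 and 968 CPM in C11 and at 396 and 287 CPM in C7. The 4 luminal progenitor markers did not move together. By the edgeR test 2 rose and 2 fell from NP to G, 3 rose and 1 fell from NP to L, and 2 rose and 1 fell from NP to PI. The part of Aldh1a3 and the other markers in these differences was not tested. The direction from G depended on which cells were summed: with the alveolar cells of C8 and C9, in which it stood at 0 to 3.82 CPM, added to the progenitors, G was lower than L (2.47 on the log2 scale, adjusted p = 0.000163, edgeR) and PI (1.03, adjusted p = 0.0106). In the 22 PI cells of C6 it stood at 132 CPM, between the progenitors of NP and C7 of PI. In C2 against C1 the PI level was 7.44% of NP, at 25.9 and 6.17 CPM, and 2.86% without PI mouse 1 or 12.02% without PI mouse 2.

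In basal cells 3110079O15Rik stood at 42.1 and 18.3 CPM in NP and at 1.01 and 1.14 CPM in G (-4.74 ± 0.59, adjusted p = 1.09e-05, edgeR). In L it was at 0.994 and 0.181 CPM (-5.40 ± 0.50 from NP, adjusted p = 7.37e-08). As for Fermt1, luminal markers were higher in the NP sums, and only 9.72% and 4.96% of NP basal cells held a UMI, with 49.7% and 90% of the UMIs in 10 cells. In PI it was at 0 and 24.7 CPM, the latter 7 UMIs from 1 cell, and the call from G to PI (adjusted p = 0.0447) was lost without either G mouse (0.0918 and 0.0778), PI mouse 1 (0.0523) or PI mouse 2 (0.838, with the direction turned).

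UMIs assigned to Gm266 were highest in gestation and low after it. Gm40578, on the same strand, covers the gene, and reads of the longer transcript cannot be told apart from those of Gm266. In progenitors it stood at 49.5 and 49.3 CPM in NP and at 153 and 160 CPM in G, a rise of 1.64 ± 0.17 on the log2 scale (adjusted p = 4.46e-06, edgeR). In L it was at 7.40 and 9.40 CPM, lower than in G by -3.94 ± 0.27 (adjusted p = 1.39e-07), a comparison that shares no sum with the choice of the genes. In PI it was at 1.08 and 2.26 CPM, lower than in G by -6.38 ± 0.23 (adjusted p = 9.13e-10) and 3.38% of the NP mean. Alveolar cells followed, with 85.3 and 115 CPM in C8 of G against 1.75 and 0 CPM in C9 of L, where milk protein genes took 44.8% and 41.7% of all UMIs. The share of cells with a UMI was 28.2% and 25.9% in C6, 75.3% and 74.6% in C10 and 0.850% and 1.36% in C7. In hormone-sensing progenitors it went from 12.4 and 14.4 CPM in NP to 1.06 and 2.39 CPM in PI. In basal cells it was at 4.70 and 2.74 CPM in NP, 5.81 and 3.66 CPM in G and 0.426 and 0.120 CPM in L, a fall from G of -3.83 ± 0.58 (adjusted p = 4.48e-05), while NP and G overlapped (0.35 ± 0.52, adjusted p = 0.619). The share of basal cells of G with a UMI was 3.81% and 2.69%, at median depths of 6201 and 6060. In G fibroblasts it was 2.63% and 3.23%, at 5379 and 4619. These fibroblast shares were 1 of 38 and 1 of 31 cells, with exact binomial intervals of 0.0666 to 13.8% and 0.0816 to 16.7%. With so few cells the part of background in the basal level of G cannot be told. The fall of this level in L is not read as a change in basal cells, nor is a change excluded.

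**Figure D4:**
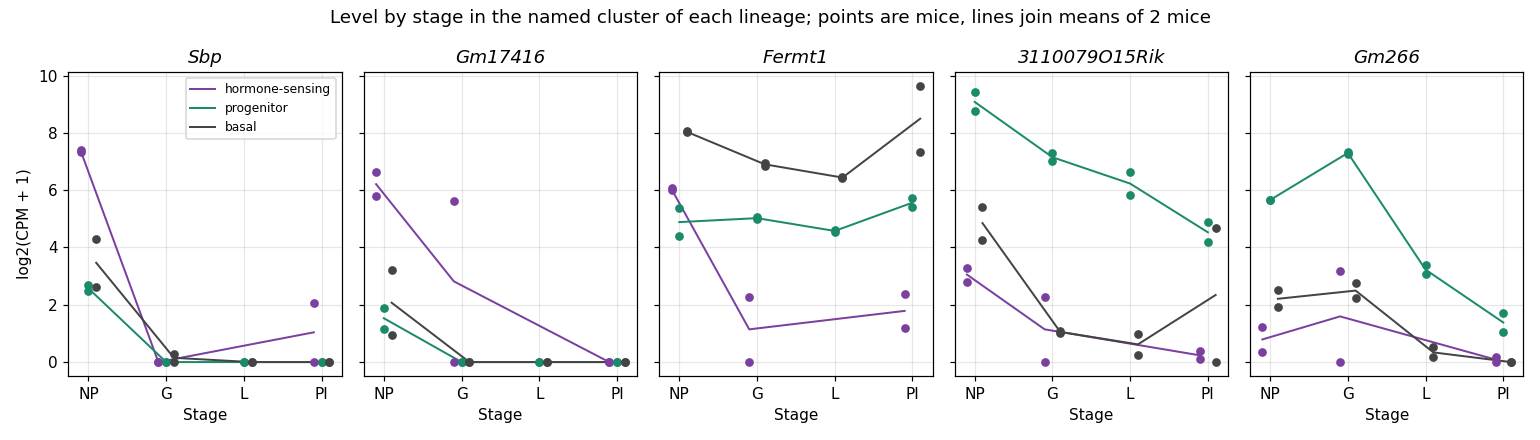
log2(CPM + 1) of each gene by stage (horizontal axis) in hormone-sensing cells (C4, C5, C3; no L cluster, so the line joins G to PI), progenitors (C6, C10, C11, C7) and basal cells (C12, C13, C14, C12); points are mice and lines join the means of 2 mice. Gm266 rises from 49.5 and 49.3 CPM in NP to 153 and 160 CPM in G in progenitors, where Fermt1 stays between 19.9 and 52.1 CPM.

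The change from NP to G differed between the 3 lineages for 3 of the 5 genes, in a fit with a term for each mouse that called 37% of all genes. For Fermt1 (adjusted p for both terms = 3.71e-05, edgeR) the change in progenitors exceeded that in basal cells by 0.97 ± 0.27 on the log2 scale (adjusted p = 0.00511). The fall in hormone-sensing cells was steeper than in basal cells (adjusted p = 0.00176) and than in progenitors (adjusted p = 5.05e-05). For 3110079O15Rik (0.000323 for both terms) the fall in progenitors was smaller than that in basal cells by 2.78 ± 0.55 (adjusted p = 0.000105). Gm17416 passed as well (adjusted p = 0.036), on the 6 UMIs of 1 cell in G. For Gm266 (0.0951) and Sbp (0.638) no difference was resolved.

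These counts stand beside those of all genes. The members were chosen as high in NP and low in PI, so no enrichment is read from comparisons with either stage. In basal cells 4 of the 5 genes passed the filter on low counts. Sbp and 3110079O15Rik passed it through their NP sums, which were also used to choose the genes. Sbp held 63 UMIs in NP, 1 in G and 0 in L, and 3110079O15Rik held 219, 9 and 24. Their calls as lower in G and L were thus favoured in advance. Of the 4 genes, 3 were lower in G than in NP and 4 lower in L than in NP. Of all genes, 19% and 30.6% were called lower. Sbp, for which the part of background in basal cells was not tested, was among the lower genes in both. From G to L 1, Gm266, was lower (25.1% of all genes), and from G to PI 2 were higher (5.64%). In progenitors 3 of the 5 passed the filter; from NP to G 1 was lower (21.1%) and 1 higher (22.1%), from NP to L 2 were lower (21.4%), from G to L 1 was lower (12.9%), and from G to PI 2 were lower (21.6%) and 1 higher (22.1%). In hormone-sensing cells all 5 passed. Of these, Sbp, Fermt1 and 3110079O15Rik held 0, 1 and 1 UMIs in G and passed through their NP sums. Of the 5, 3 were lower in G than in NP (9.2%) and 1 lower in PI than in G (5.16%).

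The pathways of these genes were followed by lists chosen by function, with no set test. Of 27 kindlin, talin and integrin adhesion genes, 24 were tested in basal cells and 12 rose and 3 fell from NP to G, a median log2 fold change of 0.39 against 0.01 for all genes, of which 21.4% were called higher and 19% lower. In the same comparison 5 of 5 luminal and 5 of 5 hormone-sensing markers fell (medians of -2.97 and -2.58) and 4 of 6 fibroblast markers rose (median 1.46), and their part in the list's change was not tested. Itgb3 rose (4.23 and 3.66 CPM in NP, 30.8 and 28.4 CPM in G), and Itgb4, the hemidesmosome subunit, fell from 61.8 and 55.4 to 16.7 and 23.1 CPM. In hormone-sensing cells 1 of 20 rose and 5 fell, a median of -0.67 against -0.24 for all genes, of which 6.46% were called higher and 9.2% lower; Itgb6, which encodes an epithelial integrin subunit, went from 43.7 and 35.4 CPM to 8.11 and 0 CPM (1 UMI in G; adjusted p = 0.000334, edgeR), and Tln2, a talin, rose from 7.03 and 6.20 to 24.3 and 58.1 CPM. Of 19 polyamine genes, 16 were tested in hormone-sensing cells; 1 rose and 3 fell from NP to G (6.46% and 9.2% of all genes), with Amd1, which makes the aminopropyl donor of spermine synthesis, going from 80.6 and 93.0 to 8.11 and 11.6 CPM (1 and 3 UMIs). Of 24 cartilage matrix genes and their transcription factors, 13 were tested in progenitors, and from NP to G 2 rose and 4 fell, with a median of -0.02. Of all genes 22.1% were called higher and 21.1% lower. Lect1 (chondromodulin) rose from 4.83 and 3.32 to 70.4 and 95.5 CPM, and Col9a2 fell. Of 18 oestrogen and progesterone targets, 17 were tested in hormone-sensing cells; 5 rose and 3 fell from NP to G (6.46% and 9.2% of all genes), a median of -0.31 against -0.24 for all genes. Tnfsf11, the RANK ligand induced by progesterone, rose from 2.61 and 1.65 to 617 and 677 CPM, whereas Stc2 went from 137 and 141 to 0 and 3.87 CPM.

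The genes most alike in pattern were named by the Pearson correlation of log2(CPM + 1) over the 35 sums among 9761 genes. These sums share libraries and differ in depth, and the values are descriptions. Sbp was most like Nrg4 (0.87), Itih2 (0.83) and Gm17416 (0.82), and Gm17416 was most like Sbp (0.82), Defb50 (0.78) and Itih2 (0.74). Nrg4, a ligand of the ERBB receptors, stood at 24.6 and 42.8 CPM in C4 of NP. Defb50, a β-defensin, stood at 51.6 CPM in C2 and 31.2 CPM in C4 of NP mouse 1 but only at 0.289 CPM in C2 and 0.0689 CPM in C4 of NP mouse 2. Fermt1 was most like Arl4c (0.86), Icam1 (0.85) and Tpbg (0.84), each highest in C12 of PI mouse 1. 3110079O15Rik was most like Aldh1a3 (0.87), Slco1a5 (0.82) and Fcgbp (0.81). Gm266 was most like the complement gene C3 (0.82), Bcl2a1d (0.79) and Rspo1 (0.79), a Wnt agonist at 448 and 372 CPM in C10 of G. Among the members the next highest correlation was that of 3110079O15Rik with Gm266 (0.56).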

How the data were processed

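Mammary epithelial cells of 8 mice were profiled by droplet sequencing (Chromium Single Cell 3′ v2). Reads were aligned by the authors with Cell Ranger and STAR to mm10; versions are not given in the sources used here. The deposited matrices hold raw counts of UMIs per gene and cell, and the authors' annotation gives clusters, quality calls and the mitochondrial fraction of each cell. Only cells passing the authors' filters were used, with their doublet cluster C20 left out. For every mouse, the UMIs of each cluster of 20 or more cells were added up. The sums of each lineage were fitted with edgeR 4.0.16 (TMM, filterByExpr with a minimum count of 10, quasi-likelihood F-test) on R 4.3.3, and p-values were Benjamini-Hochberg adjusted over all genes tested, with a threshold of 0.05. Alternatives were DESeq2 1.42.0, other filters, other cells, other samples and a replicate block. Same-numbered mice did not deviate together (correlations of -0.0512 to 0.068), so mice were not paired. Floors and intervals cover counting error. The fits were tested on simulated counts with genes changed in PI, or in G progenitors for the difference between lineages. Log2 changes of 2 were recovered for 43% of changed genes in basal cells, 89% in progenitors and 88% in hormone-sensing cells. Changes of 1 were recovered for 2%, 22% and 22%. For the difference between lineages 37.5% of changes of 2 were recovered. False calls were 2.17 to 3.51% of calls. No comparison with G or L within a lineage was simulated. Besides the 5 members, the text names, per list and comparison, from the 2 largest changes in each direction past the test with at least 20 CPM in 1 group, and the 3 genes most correlated with each member. Members and lists were chosen with earlier results of these data known.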

Additional observations from a re-analysis of the deposited data

Results flagged for a closer look

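The change from NP to G differed between basal cells, progenitors and hormone-sensing cells by a test of the difference itself (edgeR's quasi-likelihood test) for Fermt1 (adjusted p = 3.71e-05), 3110079O15Rik (adjusted p = 0.000323) and Gm17416 (adjusted p = 0.036). The value for Gm17416 rested on 6 UMIs of 1 cell in G. In hormone-sensing cells of G, Fermt1 and 3110079O15Rik held 1 UMI each.

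UMIs above the limit that a count of 0 allows, 3 UMIs, were also found outside the epithelial clusters. In fibroblasts (C18) of NP mouse 2 there were 4 UMIs of Sbp. Fermt1 had 5 UMIs in immune cells (C17) and 4 in endothelial cells (C19) of G mouse 1, and 4 and 7 in those of G mouse 2. In L its immune cells (C17) held 35 UMIs in mouse 1 and 6 in mouse 2. Gm266 had 4 UMIs in endothelial cells (C19) of G mouse 2. No source of these UMIs was tested.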

How the results depend on the processing

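Of 22 gene results past the threshold, 12 kept direction and call under every alternative run. The larger moves in the number of members past the test were these, with further moves of 1 member under other settings. In basal cells from G to L (1), it was 0 with the filter of 0.1 UMI per cell and 2 with only the groups of the contrast, and 1 to 2 when each mouse was left out (2 without PI mouse 1 or PI mouse 2). From G to PI (2), it was 1 with DESeq2, with the 0.1 UMI filter, with all cells of the lineage and with only the groups of the contrast, 0 with a threshold of 1 on the log2 scale (glmTreat), and 0 to 2 when each mouse was left out (1 without G mouse 1, G mouse 2 or PI mouse 1, 0 without PI mouse 2). From NP to G (3) and NP to L (4), it was 1 with the 0.1 UMI filter, and 2 and 3 with DESeq2. When each mouse was left out these were 3 to 4 and 4 to 5, those of progenitors were 2 to 3 from NP to G, NP to L and G to PI, and the difference between lineages (3) was 2 to 4. In hormone-sensing cells from NP to G (3) it was 1 with DESeq2 and 1 to 3 when each mouse was left out (1 without G mouse 2), and from G to PI (1) it was 0 with only the groups of the contrast and 0 to 1 when each mouse was left out (0 without G mouse 1). In progenitors from G to L (1) it was 2 with no filter and with all cells of the lineage. The count of 17 from NP to PI was 17 to 19 when each mouse was left out. With all cells of the lineage it was 12 of the 15 combinations that this gives. The cause of these changes was not tested.

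Directions turned for 3110079O15Rik in progenitors with all cells of the lineage (2.47 from G to L, 1.03 from G to PI), and in basal cells without L mouse 2 (0.0155 from G to L, range -2.27 to 0.0155 when each mouse was left out) and without PI mouse 2 (-5.97 from G to PI, range -5.97 to 4.25). Fermt1 in progenitors from NP to G, at 0.0022 in the main fit, ranged from -0.38 to 0.61 when each mouse was left out. It was -0.0599 with no filter or without G mouse 2, and -0.38 without NP mouse 2. It was -0.0129 without L mouse 2 and -0.0022 without either PI mouse. From NP to L it was 0.44 without NP mouse 1 (range -0.56 to 0.44). Gm266 in basal cells from NP to G was -0.0026 without G mouse 1 (range -0.0026 to 0.83). With the replicate block the counts were those given, for example 3 in basal cells from NP to G, so pairing changed no count, and the difference between lineages gave 2 in place of 3 with no mouse term. glmTreat was not run for that difference.

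Over all genes, glmTreat called 500 in place of 4784 genes in basal cells from NP to G, and the 0.1 UMI filter 2939. In hormone-sensing cells from NP to G 447 genes were called without G mouse 2 and 1006 without G mouse 1, in place of 1806. In progenitors all cells of the lineage gave 6787 in place of 4392 from NP to G. Depth limits C5 of G and C12 of PI, where a count of 0 allows 7.86 and 7.59 CPM.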

Other observations

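Neighbours of Sbp and Gm17416 within 50 kb were looked up after the values of both genes had been seen. Near Sbp, Dcpp3 was counted with 109 and 67 UMIs in the NP libraries, 3 and 13 in G, 0 in both L libraries, and 0 and 1 in PI. Near Gm17416, Defb45 had 160 and 86 UMIs in NP, 3 and 15 in G, 0 in both L libraries, and 0 and 15 in PI. Defb29, also near Gm17416, had 74 and 42 UMIs in NP, 4 and 4 in G, 0 in both L libraries, and 2 and 24 in PI. Prss22, 47927 bases from Sbp, was counted at all stages, with 2012 and 4326 UMIs in PI. These are whole-library counts with no test, and they depend on how many cells of each type a library held.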
